A study of Mus musculus with 5 samples.

Results

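The loci of 5 genes that restrain or tune Wnt signalling, Axin2, Nkd1, Znrf3, Rnf43 and Lgr5, were examined for β-catenin occupancy in mouse embryonic stem cells. A peak belonged to a locus when its summit lay inside a window set for that gene in mm9 coordinates. The windows held 57 peaks of the 44750 in the 3 deposited peak lists. Of these, 25 of 16069 came from CHIR99021-treated cells captured with anti-FLAG, 23 of 15947 from CHIR99021-treated cells captured with streptavidin, and 9 of 12734 from DMSO-treated cells captured with streptavidin.

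All libraries came from a V6.5 embryonic stem cell line whose Ctnnb1, the β-catenin gene, carries a Biotin-3xFLAG knock-in, with BirA, the enzyme that attaches biotin to such a tag. The protocol also names cells with BirA alone, and no ChIP from those was analysed here. Cells grew in serum and LIF on feeder cells, and an embryonic stem cell-enriched fraction was taken after feeders had been left to settle. CHIR99021, a GSK3 inhibitor, was given at 3 µM (3 mM in the extraction text), for 16 hours in the protocol and 24 hours in the series text; DMSO was its vehicle, labelled with the same 3 µM. Each ChIP group was 1 library from that 1 line, so no value below carries a replicate error, and intervals cover counting error only. The 2 input libraries served only as the authors' peak-calling controls.

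The canonical Wnt pathway stabilises β-catenin, which binds TCF and LEF factors on chromatin. Several of its best known target genes feed back on it. Axin2 is a scaffold of the complex that destroys β-catenin, and Nkd1 binds Dishevelled and dampens the signal. Znrf3 and Rnf43 are membrane ubiquitin ligases that remove Frizzled receptors from the cell surface. Lgr5 is a receptor for R-spondins, which clear Znrf3 and Rnf43 and so raise Wnt sensitivity. In mouse embryonic stem cells, Wnt activity and GSK3 inhibition are known to favour self-renewal.

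The windows lay on chromosome 11 (Axin2, 108730000 to 108870000; Znrf3, 5120000 to 5400000; Rnf43, 87420000 to 87600000), chromosome 8 (Nkd1, 90990000 to 91180000) and chromosome 10 (Lgr5, 114830000 to 115080000). Their widths were 140, 280, 180, 190 and 250 kb in that order. Only a GRCm38.p6 gene table was at hand, so the names of the windows rest on the rule, and no peak was placed in an exon, intron or promoter. In that table the chromosome 11 genes run in the order of their windows, Znrf3, Rnf43 and Axin2. The genes span 33.0 kb for Axin2, 73.5 kb for Nkd1, 168.5 kb for Znrf3, 72.5 kb for Rnf43 and 137.5 kb for Lgr5, each less than its window. Parts of neighbours may therefore lie in a window. The nearest protein-coding neighbours in that table are Cep112 and Rgs9 (Axin2), Brd7 and Snx20 (Nkd1), Kremen1 and Xbp1 (Znrf3), Hsf5 and Supt4a (Rnf43), and Zfc3h1 and A930009A15Rik (Lgr5).

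The RefSeq promoter table (GRCm38.p6) held 4 starts for 3 of the 5 genes, Axin2, Nkd1 and Rnf43. The 250 bases before the start of Axin2 (chromosome 11, plus strand) and of Nkd1 (chromosome 8, plus strand) are shown because these genes are the intracellular inhibitors, with many and with few β-catenin tags at their loci. They run 5′ to 3′, and capitals mark CG dinucleotides.
Axin2: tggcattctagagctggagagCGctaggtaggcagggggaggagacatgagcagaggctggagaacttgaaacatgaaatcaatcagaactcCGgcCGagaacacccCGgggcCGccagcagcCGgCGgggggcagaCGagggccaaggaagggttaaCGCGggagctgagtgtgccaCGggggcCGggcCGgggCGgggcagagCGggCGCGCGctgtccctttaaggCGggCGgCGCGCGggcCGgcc
Nkd1: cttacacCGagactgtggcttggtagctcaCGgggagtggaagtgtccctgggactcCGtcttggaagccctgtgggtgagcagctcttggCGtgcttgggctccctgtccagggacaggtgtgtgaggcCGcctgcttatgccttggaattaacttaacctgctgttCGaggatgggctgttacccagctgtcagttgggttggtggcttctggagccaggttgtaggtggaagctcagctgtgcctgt
The Axin2 stretch held 24 CG dinucleotides and 69.2% G plus C, and the Nkd1 stretch 6 and 58.4%. The Rnf43 stretches held 8 and 2. The median over 32851 promoters was 6. Rnf43 was also a locus with few tags, with 142 by CHIR99021 streptavidin against 152 at Nkd1. Whether CG content goes with tags was not tested. The TCF/LEF motif CTTTGAT, searched on both strands, was in none of the 4 member stretches and in 3.21% of all promoters. Its shorter part CTTTG, which every CTTTGAT contains, was in none of the 4 and in 48.6% of all. This says only that these letters are not in these windows; the sequences under the peaks were not read here.

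Depth and calling bear on every value. The anti-FLAG library had 16100920 unique tags and the CHIR99021 streptavidin library 11934863. The DMSO header gives no total, so that depth is unknown. The DMSO library is labelled as streptavidin capture and its alignment is named for biotin, whereas the run name and the name of the deposited list say FLAG. The fragment size d set by the peak caller was 185 bp for anti-FLAG and 214 bp for streptavidin in CHIR99021-treated cells, and 30 bp in DMSO-treated cells. Peaks had median lengths of 859 bp and 926 bp in those CHIR99021 lists, and of 74 bp in the DMSO list. The part of these differences in any DMSO result cannot be told apart from that of the treatment.

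Peaks of CHIR99021-treated cells were dense in the 5 windows. Together the windows span 1040 kb and held 24.0 anti-FLAG peaks per Mb, against 6.25 per Mb over the whole anti-FLAG list. The CHIR99021 streptavidin list had 22.1 per Mb in the windows and 6.20 per Mb overall. For DMSO the values were 8.65 and 4.95 per Mb. In flanks of 50 kb on each side of the windows, 0.5 Mb in all, there were 4 anti-FLAG peaks, 6 CHIR99021 streptavidin peaks and 3 DMSO peaks. The windows were chosen with earlier results of these data known, so this density is a description. Axin2 was the densest for both captures, with 35.7 peaks per Mb each, and its flanks held none of any list. Its window was also the narrowest, at 140 kb, so this place depends on window width. By count it had 5 peaks for each capture, against 6 at Nkd1 by anti-FLAG and 8 at Znrf3 by streptavidin. With windows widened by 50 kb on both sides, it still had 5 each, against 7 at Nkd1 and 10 at Znrf3 for those captures.

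**Figure D1:**
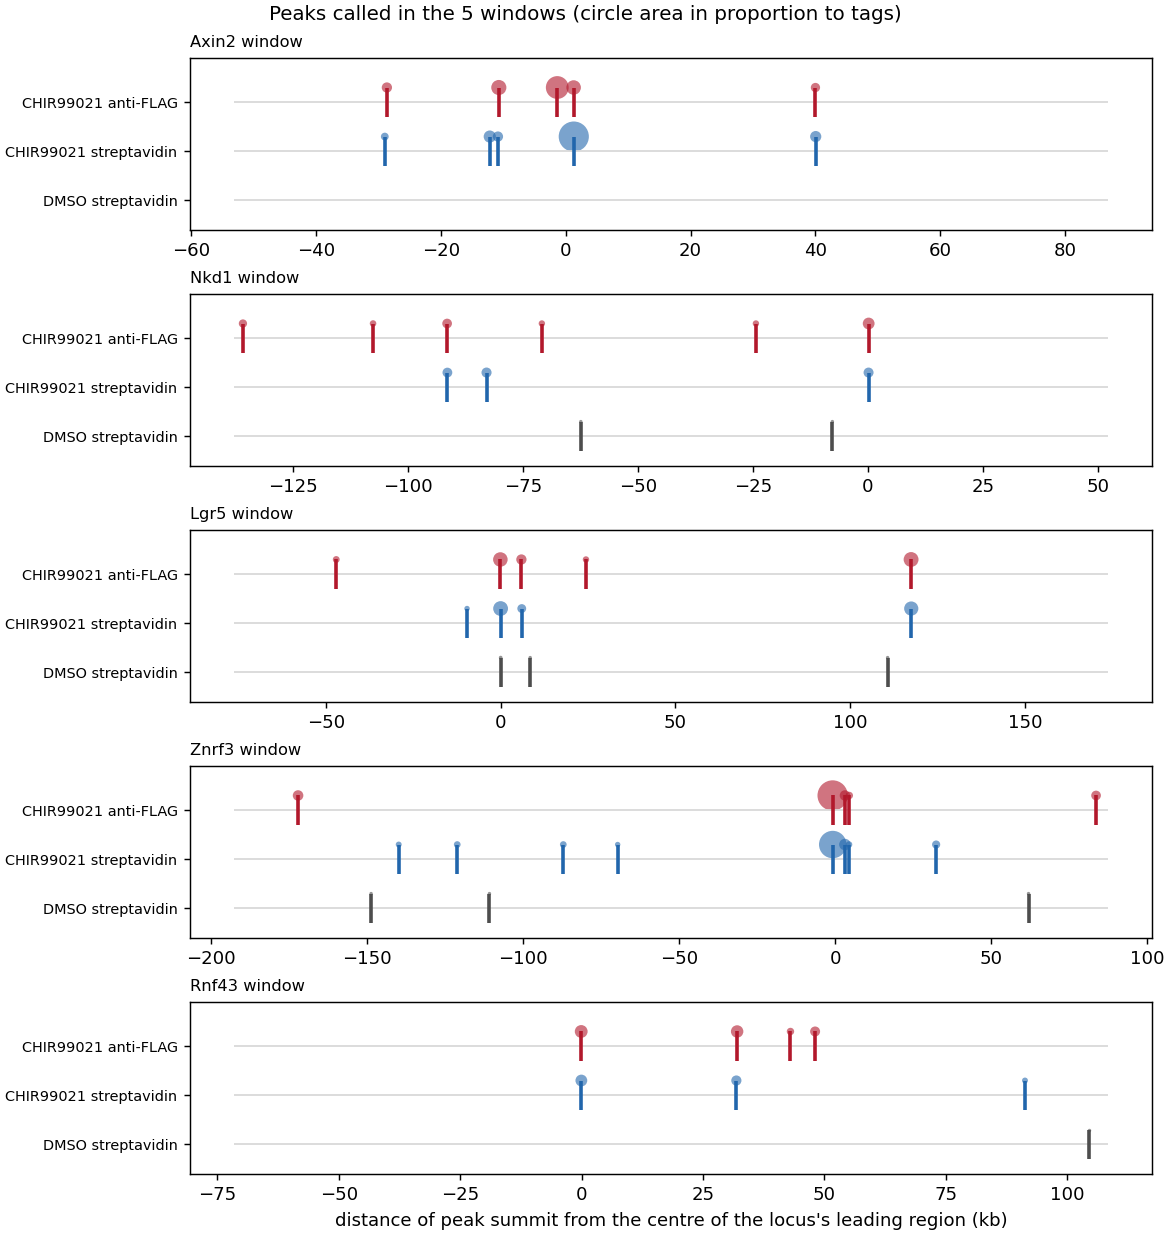
Summits of all 57 peaks in the 5 windows, as distance in kb from the centre of the region with most tags at that locus. Rows are the 3 lists, circle area is in proportion to tags, and the grey line is the window; the largest circles sit at Axin2 and Znrf3, and Axin2 has no DMSO peak.

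Overlapping peaks of the 3 lists merged into 39 regions. Of the 31 regions with a CHIR99021 peak, 13 (41.9%, exact interval 24.5 to 60.9%) were held by both captures, against 40.2% of all 22658 such regions in the genome. Of anti-FLAG peaks in the windows, 15 of 25 (60.0%) shared bases with a CHIR99021 streptavidin peak, against 57.6% of the whole list. In the other direction it was 15 of 23 (65.2%), against 57.8%. The share of sites found by both captures was thus close to that of the whole lists. The loci differed in it: Axin2 had 4 of 4 regions in both lists, Lgr5 3 of 6, Rnf43 2 of 5, Nkd1 2 of 7 and Znrf3 2 of 9. With so few regions per locus the exact intervals overlap, from 39.8 to 100.0% for Axin2 and from 2.81 to 60.0% for Znrf3.

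The 13 shared regions are numbered along the chromosome within each locus. Over all called peaks, the order of the loci by tags was not the same for both captures. Anti-FLAG tags numbered 659 at Znrf3 (Poisson interval 609.6 to 711), 589 at Axin2 (542 to 639), 320 at Lgr5 (286 to 357), 242 at Rnf43 (212 to 274) and 218 at Nkd1 (190.0 to 249). CHIR99021 streptavidin tags numbered 690 at Axin2 (639 to 743), 588 at Znrf3 (541 to 638), 270 at Lgr5 (239 to 304), 152 at Nkd1 (129 to 178) and 142 at Rnf43 (119.6 to 167). Axin2 and Znrf3 led in both lists, and Lgr5 followed them in both. The intervals of Axin2 and Znrf3 overlapped for anti-FLAG and just missed each other for streptavidin. Those of Rnf43 and Nkd1 overlapped in both lists. Called length moves with these sums. For anti-FLAG it was 8297 bp at Znrf3, 7712 bp at Axin2, 5329 bp at Lgr5, 4233 bp at Rnf43 and 4798 bp at Nkd1, which gives 79.4, 76.4, 60.0, 57.2 and 45.4 tags per kb. For CHIR99021 streptavidin the same loci had 59.2, 73.2, 50.5, 42.7 and 36.1 tags per kb. Per kb of called peak, Axin2 and Znrf3 still led in both lists and Nkd1 was last in both.

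Axin2, the destruction complex scaffold, had, of the 5 loci, the shared region with most streptavidin tags. Axin2 region 3 (chromosome 11, 108781022 to 108785289) spanned 4268 bp, the 37th longest of the 9113 regions of both captures. It held 374 anti-FLAG tags and 465 CHIR99021 streptavidin tags, and no DMSO peak was called in it. By the sum of these tags it was rank 43 of 9113. It carried 63.5% of the anti-FLAG tags and 67.4% of the streptavidin tags called at Axin2. The leading region carried a like share at Znrf3, 71.3% for anti-FLAG and 65.5% for streptavidin. At Nkd1, Lgr5 and Rnf43 it carried 32.6 to 34.7% for anti-FLAG and 33.6 to 50.0% for streptavidin.

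The 2 captures divided Axin2 region 3 differently. Anti-FLAG gave 2 peaks, with 266 and 108 tags and fold enrichments over local background of 24.08 and 26.50. Their summits lay 2621 bp apart. Streptavidin gave 1 peak over the whole region, with a fold enrichment of 29.64. Its summit lay 24 bp from the summit of the anti-FLAG peak with fewer tags and 2645 bp from that of the one with more. Anti-FLAG thus marked 2 positions in the region, and the streptavidin summit marked the one at the higher coordinate. The anti-FLAG peaks nearly touch, the first ending at 108783872 and the second starting at 108783955. Each called peak carries 1 summit, so the single streptavidin peak could mark only 1 position. Whether the captures differ in where tags pile up was not tested.

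The other shared Axin2 regions were smaller. Axin2 region 2 (108769907 to 108773027), 7994 bp before region 3, held 117 anti-FLAG and 130 streptavidin tags. Axin2 region 1 (108753841 to 108755044) held 54 and 31, and Axin2 region 4 (108822392 to 108823610), 37102 bp beyond region 3, held 44 and 64. Region 2 was also long, at 3121 bp, with 1 anti-FLAG summit and 2 streptavidin summits 1308 bp apart. Region 1 was the only one of the 13 in which even the nearest summits of the captures lay over 200 bp apart, at 336 bp.

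Nkd1, the Dishevelled antagonist, had 2 moderate shared regions. Nkd1 region 2 (chromosome 8, 91127132 to 91128515) held 71 anti-FLAG and 51 CHIR99021 streptavidin tags, and its summits lay 25 bp apart. Nkd1 region 1 (91035828 to 91036980), 90151 bp before it, held 48 and 49. Region 2 had fold enrichments of 10.79 by anti-FLAG and 9.17 by streptavidin, and region 1 had 5.37 and 7.67. Neither was in the top 10% of its list by p score, the deposited score that is 10 times −log10 of the peak caller's p-value. The leading Nkd1 peaks stood at rank 3592 of 16069 for anti-FLAG and at 8077 of 15947 for streptavidin. A further 4 regions were called by anti-FLAG alone, with 21 to 35 tags, and 1 by streptavidin alone, with 52 tags over 1676 bp.

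Znrf3, the first of the receptor-removing ligases, had the strongest anti-FLAG region of the 5 loci. Znrf3 region 1 (chromosome 11, 5310893 to 5314334) held 470 anti-FLAG and 385 CHIR99021 streptavidin tags, without a DMSO peak. Its fold enrichments were 33.70 and 42.98, the highest of the members in each CHIR99021 list. It ranked 40 of 9113 by tags and 108 by length, with 3442 bp. Unlike at Axin2, both captures gave 1 peak here, with summits 26 bp apart. Its peaks stood at rank 72 and rank 62 of their lists by p score.

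Only 301 bp beyond it began Znrf3 region 2 (5314636 to 5317529). Both captures split this region into 2 peaks, of 56 and 28 tags by anti-FLAG and of 68 and 22 by streptavidin. The summits were 1398 bp apart by anti-FLAG and 1314 bp by streptavidin, and the summits with most tags were 13 bp apart between the captures. Both thus placed a pair of peaks here with similar spacing. Away from these regions the captures shared nothing at Znrf3. Anti-FLAG alone called 2 regions with 57 and 48 tags, and streptavidin alone called 5 with 15 to 34 tags.

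**Figure D2:**
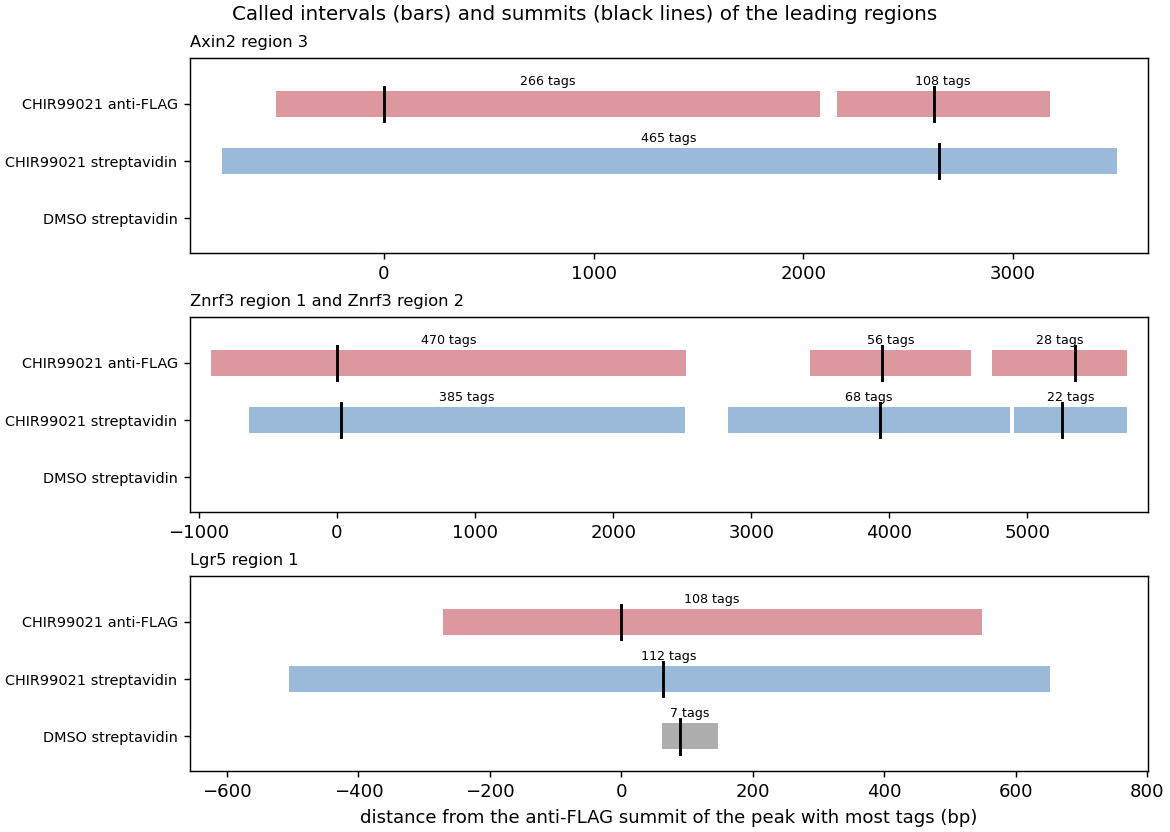
Called intervals (bars, with their tags) and summits (black lines) of Axin2 region 3, Znrf3 regions 1 and 2 and Lgr5 region 1, by list, in bp from the anti-FLAG summit with most tags. The streptavidin summit of Axin2 lies 2645 bp from the anti-FLAG one with most tags, that of Znrf3 region 1 26 bp, and a DMSO peak of 7 tags lies in Lgr5 region 1.

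Rnf43, the paralogous ligase, had 2 moderate shared regions. Rnf43 region 1 (chromosome 11, 87490900 to 87492323) held 84 anti-FLAG and 71 CHIR99021 streptavidin tags, with summits 29 bp apart. Rnf43 region 2 (87522883 to 87524331) began 30559 bp further on and held 79 and 53. Region 1 had fold enrichments of 9.85 by anti-FLAG and 10.58 by streptavidin, and region 2 had 5.38 and 5.51. Both captures thus put region 1 above region 2 in fold, and no Rnf43 peak reached the top 10% of its list by p score. Anti-FLAG alone called 2 regions, with 28 and 51 tags, and streptavidin alone 1, with 18.

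Lgr5, the R-spondin receptor, was the only locus where a DMSO peak lay in a shared region. Lgr5 region 1 (chromosome 10, 114905713 to 114906870) held 108 tags by anti-FLAG and 112 by CHIR99021 streptavidin, and the DMSO peak in it held 7. The DMSO summit lay 89 bp from the anti-FLAG summit and 25 bp from that of CHIR99021 streptavidin. The leading peaks ranked 1202 for anti-FLAG and 988 for CHIR99021 streptavidin by p score, inside the top 10% of both lists. The DMSO peak ranked 11427 of 12734.

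Lgr5 region 3 (115022770 to 115025353), 109929 bp beyond region 2, was long at 2584 bp and held 113 anti-FLAG and 103 streptavidin tags. It had about as many tags as region 1 but they were spread over more bases, with 48.2 anti-FLAG tags per kb, against 132 in region 1. Lgr5 region 2 (114911660 to 114912840), 4789 bp beyond region 1, held 54 and 40. Peaks of a single capture numbered 2 for anti-FLAG, with 24 and 21 tags, and 1 for streptavidin, with 15.

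**Figure D3:**
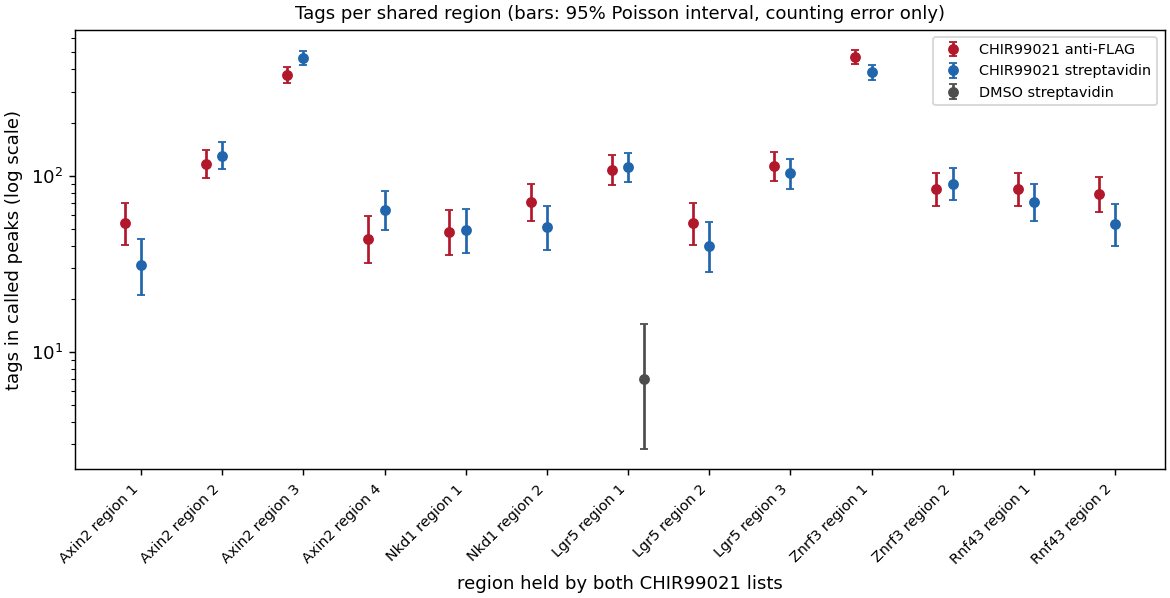
Tags in called peaks, on a log axis, of the 13 regions held by both CHIR99021 lists, with 95% Poisson intervals. Axin2 region 3 and Znrf3 region 1 lie at 374 to 470 tags, the others at 31 to 130, and only Lgr5 region 1 has a DMSO value, of 7 tags.

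Shared and single-capture peaks differed in size. The 15 anti-FLAG peaks in shared regions had 28 to 470 tags, with a median of 79, and the 10 found by anti-FLAG alone had 21 to 57, with a median of 26. For CHIR99021 streptavidin the 15 shared peaks had 22 to 465 tags, with a median of 64, and the 8 single ones 15 to 52, with a median of 20.5. None of the single-capture peaks was in the top 10% of its list by p score, and 7 of 10 anti-FLAG and 7 of 8 streptavidin ones ranked past the median of their list. The same shares over all single-capture peaks of the lists were not counted, so these counts have no background. In the whole lists the median was 39 tags per anti-FLAG peak and 34 per CHIR99021 streptavidin peak. Over all 9113 regions of both captures the medians per region were 55 and 46. These values set regions against single peaks, and the list medians include shared peaks. By them, shared sites were larger over the whole lists too. Whether the extent of this difference at these loci departs from the rest of the lists was not tested. Over all member peaks, 4 of 25 by anti-FLAG and 3 of 23 by streptavidin were in the top 10% of their lists, a class that holds 10% of each list by definition. These lay at Axin2, Znrf3 and Lgr5.

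**Figure D4:**
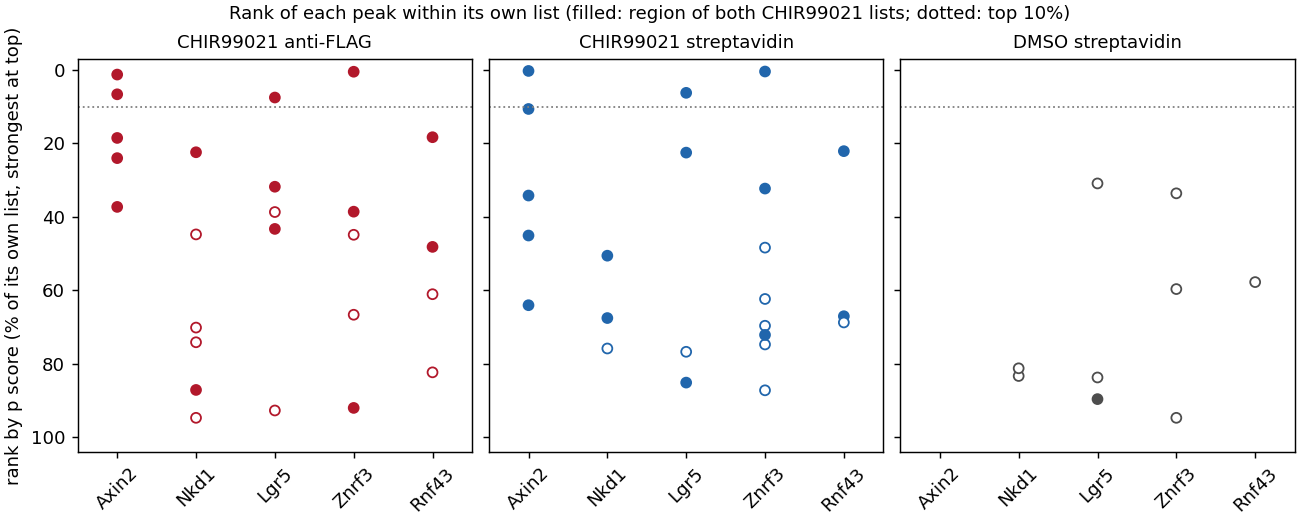
Rank of every member peak by p score, in percent of its own list with the strongest at the top, by locus. Filled points lie in regions of both CHIR99021 lists; 4 anti-FLAG and 3 CHIR99021 streptavidin peaks stand above the dotted 10% line, and the 9 DMSO peaks stand below it.

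In shared regions the summits of the captures were mostly close. The distance between the summits of the peaks with most tags was under 200 bp in 10 of 13 regions, with a median of 61 bp. Over all 9113 the median was 41 bp, the upper quartile 83 bp and the 95th percentile 339.8 bp. Most of all regions thus lay under 200 bp too, though their exact share was not counted, and the members were no closer than these. All 3 exceptions were Axin2 regions, at 2645, 1449 and 336 bp. Those at 2645 and 1449 bp lay beyond that 95th percentile. Taking the nearest pair of summits instead, the distances at Axin2 were 24, 141 and 336 bp, since regions 3 and 2 hold several summits. Nearest pairs were not measured over all 9113 regions.

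The balance between captures was set as tags per 1000000 unique tags of each library. By locus and over its shared regions, Axin2 had 36.6 for anti-FLAG and 57.8 for streptavidin, a ratio of 0.633 (exact interval 0.566 to 0.707). Znrf3 had 34.4 and 39.8, a ratio of 0.865 (0.763 to 0.979), and Lgr5 had 17.1 and 21.4, a ratio of 0.799 (0.672 to 0.952). At Nkd1 (0.882, 0.670 to 1.16) and Rnf43 (0.974, 0.767 to 1.24) the interval held 1. Over the 13 regions anti-FLAG had 106 and streptavidin 138 such tags, a ratio of 0.767 (exact interval 0.716 to 0.821), which turned to 1.03 without scaling to depth. Axin2 region 3 and Znrf3 region 1 weigh most in this sum, and the median of the 13 single ratios was 0.813. The median over all 9113 regions was 0.879, with quartiles of 0.741 and 1.05, so a ratio below 1 was usual. The pooled intervals of Znrf3, Lgr5, Nkd1 and Rnf43 held this median of single regions, and that of Axin2 lay below it. The single ratios ran from 0.510 at Axin2 region 4 to 1.29 at Axin2 region 1, and 8 of 13 lay below the median of all regions. The counting interval lay wholly below that median in 3 regions, all at Axin2: region 3 (0.596, interval 0.519 to 0.685), region 2 (0.667, 0.515 to 0.863) and region 4 (0.510, 0.339 to 0.760). In none did it lie above. Of all 9113 regions, 8.9% had a lower ratio than region 3, 16.1% than region 2 and 3.37% than region 4. How many of all 9113 have an interval wholly below the median was not counted, here or per kb of called interval. Znrf3 region 1, with about as many tags as Axin2 region 3, had 0.905 (0.789 to 1.04). The called intervals were longer for streptavidin in these Axin2 regions. Per kb of called interval the pooled ratio was 0.893, against a median of 0.925 over all regions, and the interval of only 1 of the 13 regions, Axin2 region 3, lay wholly below that median (0.706, interval 0.614 to 0.810), where 11.1% of all regions had a lower ratio. No replicate was at hand to set the spread between libraries beside this.

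**Figure D5:**
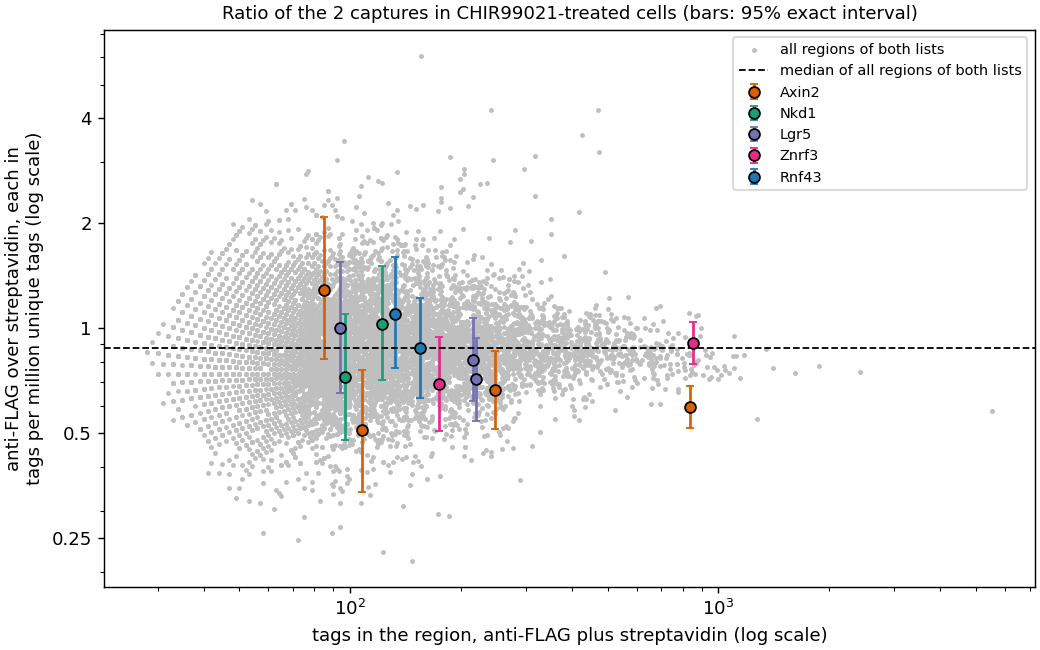
Ratio of anti-FLAG to CHIR99021 streptavidin tags, each per 1000000 unique tags, against the tags in the region, both on log axes; grey points are all 9113 regions of both lists and coloured points, with 95% exact intervals, the 13 member regions. The dashed line is the median of 0.879; Axin2 region 3 lies at 0.596 and Znrf3 region 1, with similar tags, at 0.905.

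The 9 DMSO peaks held 55 tags in all. Of these peaks, 8 had 6 tags, the smallest count and the median of that list, at which 71.3% of all its peaks sit, and the one in Lgr5 region 1 had 7. The low counts are thus those of the whole DMSO list. By locus there were 0 at Axin2, 2 at Nkd1, 3 at Lgr5, 3 at Znrf3 and 1 at Rnf43. Of the 9, 1 (11.1%, exact interval 0.281 to 48.2%) lay in a CHIR99021 peak, against 15% of the whole DMSO list. The other 8 lay 1836 to 20618 bp from the nearest CHIR99021 peak. Of the 13 shared regions, 1 (7.69%, interval 0.195 to 36.0%) held a DMSO peak, against 12.9% of all 9113. These shares are close to those of the whole lists. Axin2 region 3 and Znrf3 region 1, which rank among the first 50 of 9113 by tags, held none. As the DMSO depth is unknown, the lack of a DMSO peak means only that none was called, and no fold between treatments is given.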

How the data were processed

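β-Catenin ChIP-seq peaks of 3 libraries were used, 1 per group. The authors called peaks with MACS on ELAND-format alignments, each ChIP library against 1 input library, at a p-value cutoff of 1e-05, per the file headers. Those headers name no MACS version. For both CHIR99021 lists they give a control of 17758366 unique tags, so these lists appear to share 1 input. Their calls are therefore not independent in the control. Coordinates are mm9, as the submitters' processing notes state. Per peak, the deposited tables hold a whole-number tag count, a p score of 10 times −log10 p, a fold enrichment ratio and an FDR in percent. Scores and fold ratios were used only within their own list.

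Peaks were put in a window by their summit, start plus offset minus 1. Peaks that overlapped or touched, from whichever list, formed 1 region, and at least 1 shared bp counted as overlap. The rule for named items took all 5 loci and the 3 regions with most CHIR99021 tags at each; Axin2 region 1 was added so that every shared region is given. Tag sums carry 95% exact Poisson intervals, shares Clopper-Pearson intervals, and ratios exact conditional binomial intervals. Whether peak tags include duplicates is not stated in the headers. Members and windows were chosen with earlier results of these data known. Lists of other Wnt genes got no value, as no mm9 gene table was used. Alternatives changed windows, thresholds, overlap, scaling and ranking. The code was tested on simulated lists. Scripts ran in Python 3.11.15 with scipy 1.17.1, pandas 2.3.3, numpy 2.4.6 and matplotlib 3.10.9.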

Additional observations from a re-analysis of the deposited data

How the results depend on the processing

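The counts rested on the peak threshold. The 25 anti-FLAG, 23 CHIR99021 streptavidin and 9 DMSO peaks became 12, 8 and 0 at a p score of at least 100, 16, 11 and 0 at an FDR of at most 1%, and 7, 5 and 9 at a fold enrichment of at least 10, where fewer peaks enter. Their 2028, 1842 and 55 tags became 1515, 1299 and 0 at that score, 1103, 1438 and 0 at that FDR, and 1091, 1097 and 55 at that fold. The 13 shared regions became 8 at a score of 100 and 4 at a fold of 10, and the 1 with a DMSO peak became 0 at a score of 100, at an FDR of 1% and with DMSO peaks of at least 10 tags. The pooled capture ratio of 0.767 became 1.03 without scaling to depth, which turns its direction, 0.893 per kb and 0.800 per total tags. At Lgr5 region 1 it turned to 1.01 per kb, from an interval below 1. An FDR of at most 5%, any overlap with the window, and windows widened by 50 kb or narrowed by 20 kb left the summed peak counts within 1.5 times, as did the overlap rules and a merge of the 2 CHIR99021 lists alone (chosen after seeing the data, 13 regions) for the shared regions. By fold enrichment in place of p score, the leading Znrf3 peaks ranked 391 and 211 and the leading Axin2 peaks 886 and 581 in the anti-FLAG and streptavidin lists. At single loci, 36 peak counts moved by over 1.5 times and 69 did not, and 35 tag sums left their Poisson interval and 40 did not. No paired analysis was possible because there was only 1 library in every group. The DMSO depth is unknown, and 8 of 9 member peaks of that list sit at its smallest count, as do 71.3% of all its peaks; how far depth sets this was not tested.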

Other observations

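The deposited FDR did not follow the strength of peaks at these loci in the anti-FLAG list. The leading peaks of Znrf3 region 1 and Axin2 region 3, with p scores of 2114.74 and 1342.19, had FDR values of 2.78% and 1.53%, while the anti-FLAG peak of Axin2 region 1, with a p score of 112.12, had 0.30%. In the CHIR99021 streptavidin list the leading peaks of both loci had 0.00%. A limit of 1% on the FDR therefore removes the strongest anti-FLAG peaks of Znrf3 and Axin2 and keeps weaker ones.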
